A study of Homo sapiens with 4 samples.

Results

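Histone H3 lysine 9 methylation was followed here through the genes that write it and the genes that carry the G9a enzyme to chromatin. The set holds 10 genes, chosen by name: the methyltransferase genes EHMT2 (G9a), EHMT1 (GLP), SUV39H1, SUV39H2, SETDB1, SETDB2 and PRDM2, and the G9a complex partner genes WIZ, ZNF644 and CDYL. All 10 were on the array, by 32 probe sets annotated to these genes alone, of 41039 probe sets and 19741 genes in all. The study hybridised RNA of human lung adenocarcinoma cells to 4 Affymetrix arrays, 1 per group. CL1-5 cells, an invasive subline, carried a control shRNA or a shRNA against G9a (named G9a shRNA2 in its title), and CL1-0 cells, the less invasive parent line, carried a control vector or HA-tagged G9a. All 4 were stably transduced populations kept under puromycin for 2 weeks. Which promoter drives HA-G9a, and how many cultures lie behind each array, is not given in the sources used here.

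G9a and GLP work as a heterodimer that places mono- and dimethyl marks on lysine 9 of histone H3 in gene-rich chromatin, where these marks go with repression. Zinc finger and chromodomain proteins hold the dimer together or bring it to its sites. SUV39H1 and SUV39H2 place the trimethyl mark of pericentric heterochromatin, and SETDB1 places it on silenced retroelements and genes. In lung cancer cells G9a is known for its link to invasion and to silencing of cell adhesion genes.

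Each value is a MAS5 signal, the summary brightness of a probe set on a linear scale, and each group has a single array, so no difference below has a replicate check and none has a test. A gene is read by its probe set with the highest mean signal. The median gene was 1.34-fold brighter on the G9a shRNA array than on the CL1-5 control array (log2 0.42), and log2 0.08 dimmer with HA-G9a than with vector (-0.08). Log2 ratios called relative are therefore taken against the median gene of that comparison, and 2-fold is the threshold for a count. Genes enter a comparison when the brighter array reads at least 12.5, the median of all values. As a technical yardstick, log2 ratios of different probe sets of the same gene had a pooled SD of 0.54 for the shRNA comparison and 0.51 for HA-G9a, or 0.30 and 0.25 for probe sets reading at least 84.2. The 8 markers of type II alveolar cells, the cell type named in the labels, each read at most 60.2. Of 5 epithelial markers, KRT18 read 545 to 2945 and KRT8 67.1 to 757, EPCAM 6.06 to 24.6 and KRT19 at most 1.26, while CDH1 was at 2.36 in CL1-5 with control shRNA and at 77.6 with G9a shRNA. The 5 endothelial markers summed to 401 in the CL1-5 control, 94.8 after the shRNA, 42.3 with vector and 25.3 with HA-G9a. Of these PECAM1 went from 318 to 81.5, CDH5 from 62.3 to 5.24 and KDR from 17.2 to 3.27 in CL1-5, and VWF and TEK read at most 2.54 there. The 6 fibroblast markers summed to 36.0, 78.4, 444 and 168 in that order, led in CL1-0 by COL3A1 at 330 and 59.7 (vector, HA-G9a). PTPRC, the pan-leukocyte marker, read at most 4.17, and the 4 leukocyte markers on the array summed to between 24.2 and 37.4. The part of these markers in the member ratios was not tested.

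**Figure D1:**
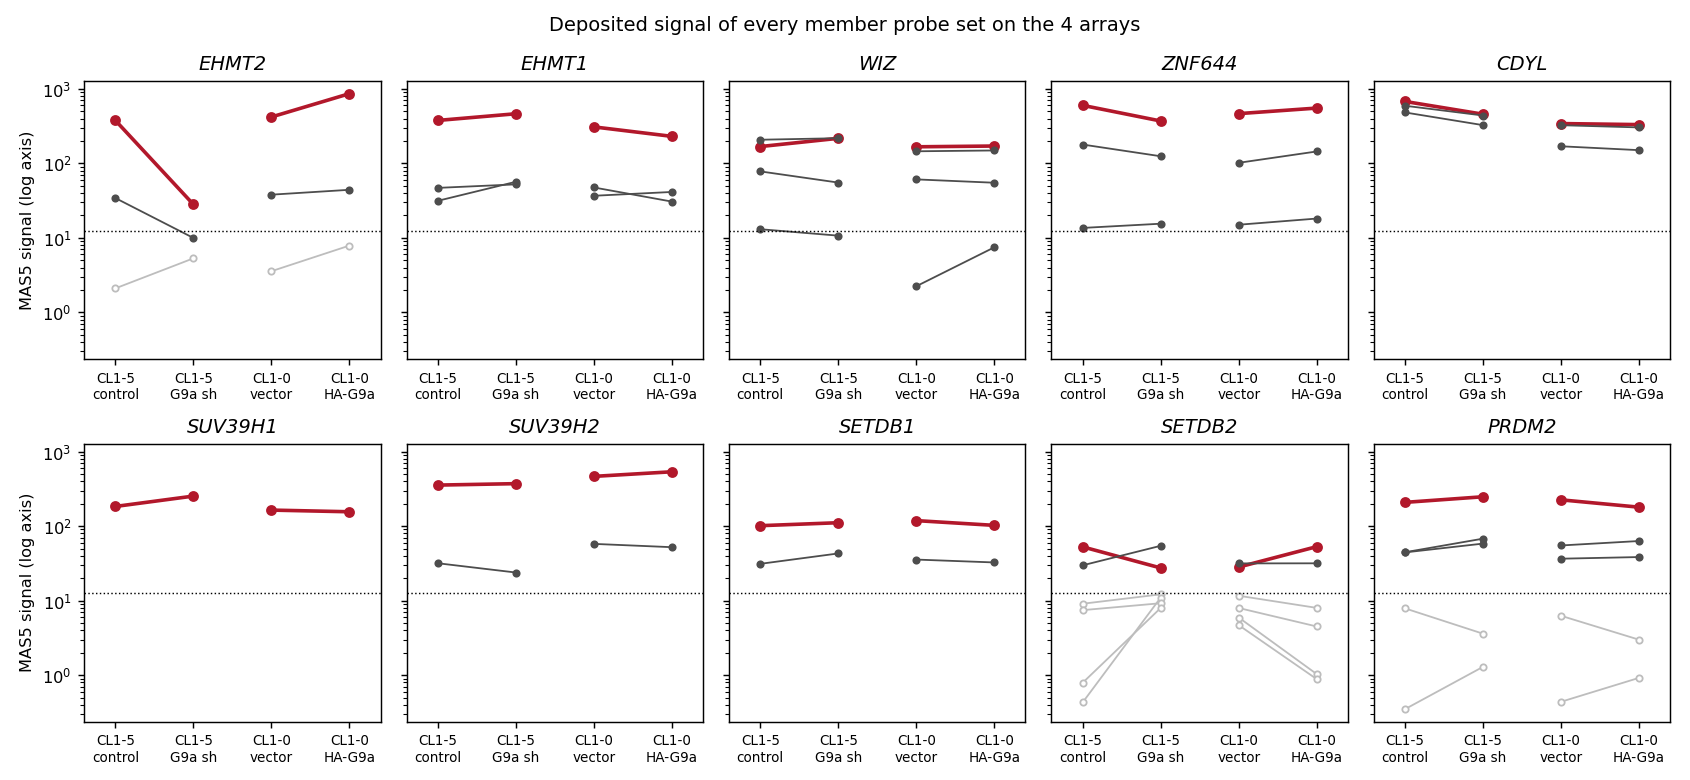
Deposited MAS5 signal (log axis) of all 32 member probe sets on the 4 arrays, 1 panel per gene, with lines joining the arrays of a cell line. Red marks the brightest probe set of a gene, dark grey the others that reach 12.5 (dotted line) on at least 1 array and open light grey points those that do not; EHMT2 goes from 376 to 28.1 in CL1-5 and from 420 to 862 in CL1-0.

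EHMT2, the gene of the targeted enzyme, read 376 in the CL1-5 control, 28.1 after the G9a shRNA, 420 with the CL1-0 vector and 862 with HA-G9a (probe set 202326_at). The shRNA array thus held 7.46% of the control signal, and the HA-G9a array 205% of the vector signal. The order of the arrays was HA-G9a, vector, CL1-5 control and G9a shRNA, and the vector and the CL1-5 control, neighbours in that order, lay within a relative log2 ratio of -0.14 (CL1-5 minus CL1-0), under the yardstick SD of 0.41 for bright probe sets in that comparison. After the shRNA the relative log2 ratio was -4.16 (-3.74 as deposited), or 17.9-fold lower against the median gene, the 38th lowest ratio of 13045 measured genes. With HA-G9a it was 1.12, or 2.17-fold, the 580th highest of 12791 genes. The second probe set of EHMT2, 207484_s_at, read 34.2, 9.98, 38.0 and 44.2 in the order CL1-5 control, G9a shRNA, vector and HA-G9a. Its relative ratio was -2.20 after the shRNA but 0.30 with HA-G9a, so the dimmer probe set showed the loss and little of the gain. The last of its probe sets, 229079_at, stayed below 12.5 on all arrays. Where these probe sets lie on the transcript, and whether the HA-G9a construct holds their targets, is not known here. In a population, fewer expressing cells and less RNA per cell cannot be told apart.

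Among the members, 3 of 10 were at least 2-fold lower after the G9a shRNA relative to the median gene, namely EHMT2, ZNF644 and SETDB2, and none was 2-fold higher. EHMT2 is the gene that the shRNA targets, so only ZNF644 and SETDB2 are further genes in this count. Over all 13045 measured genes 7.76% were 2-fold lower and 8.13% higher, or 15.9% in either direction. As deposited, without setting ratios against the median gene, only EHMT2 passed, beside 4.74% of genes 2-fold lower and 16.8% higher. The median member had a relative log2 ratio of -0.32, against 0.00 for all genes, and -0.29 without EHMT2. Relative ratios were below 0 for 9 of 10 members, on a scale that puts the median gene at 0. As deposited they were below 0 for 4 of 10, against 21.4% of genes. The 4 were EHMT2, ZNF644, CDYL and SETDB2, whose brightest probe sets therefore read lower on the shRNA array although most genes read higher there. Of their other measured probe sets, SETDB2 235339_at (54.4 against 29.8) and ZNF644 229684_s_at (15.5 against 13.6) read higher after the shRNA, and the rest lower.

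**Figure D2:**
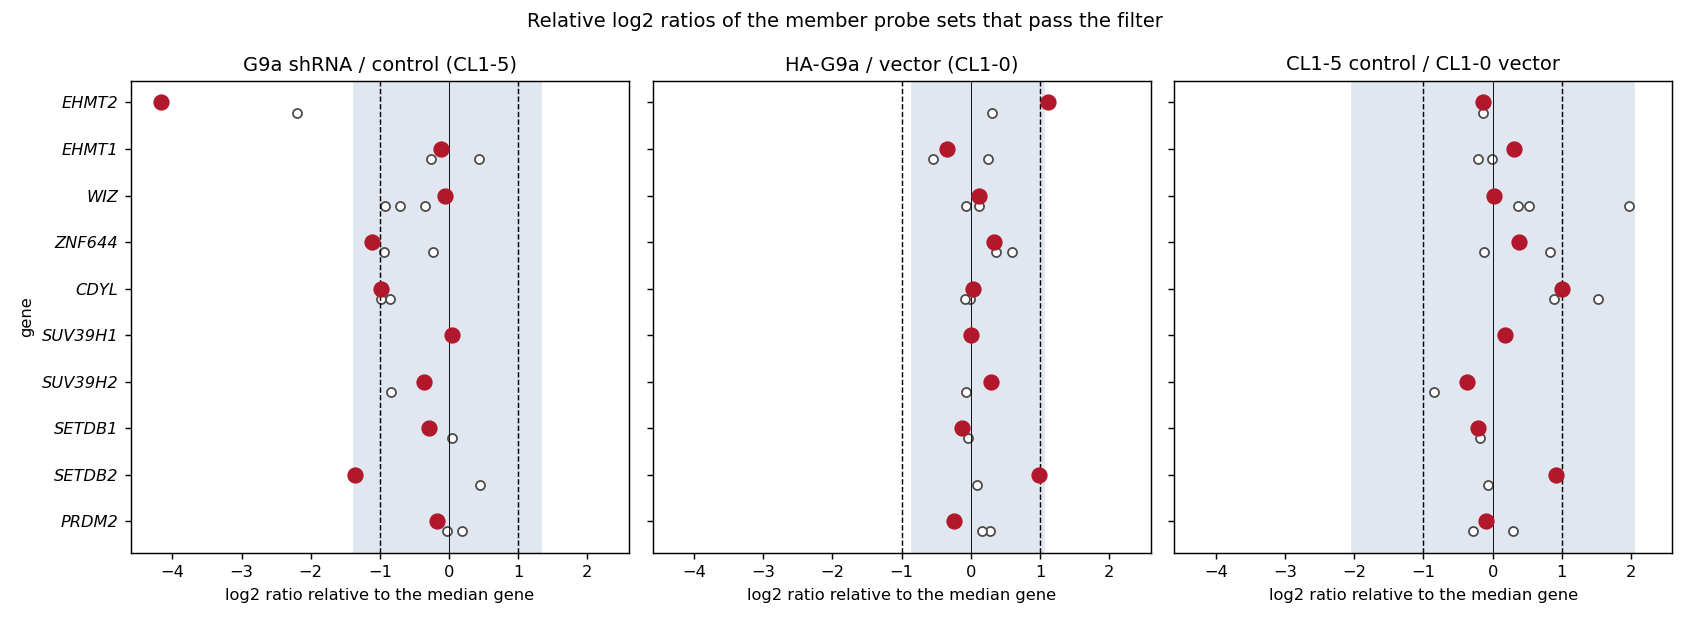
Log2 ratio relative to the median gene (x axis) of each member (y axis) in the 3 comparisons, for probe sets that pass the filter; filled red points are the brightest probe set, open points the others, drawn just below it. Dashed lines mark 2-fold and the shaded band runs from the 5th to the 95th percentile of all measured genes (-1.38 to 1.33 in the shRNA panel); EHMT2 at -4.16 lies far outside it.

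The promoters of the 3 genes past 2-fold after the shRNA are shown because they are the genes on which that count rests. They are the 250 bases before the RefSeq start (GRCh38.p14; the outermost start where a gene has several), read 5′ to 3′ on the gene's strand, with CG dinucleotides in capitals. EHMT2 lies on the minus strand at chr6:31897699-31897948, ZNF644 on the minus strand at chr1:91022036-91022285 and SETDB2 on the plus strand at chr13:49444024-49444273.
EHMT2: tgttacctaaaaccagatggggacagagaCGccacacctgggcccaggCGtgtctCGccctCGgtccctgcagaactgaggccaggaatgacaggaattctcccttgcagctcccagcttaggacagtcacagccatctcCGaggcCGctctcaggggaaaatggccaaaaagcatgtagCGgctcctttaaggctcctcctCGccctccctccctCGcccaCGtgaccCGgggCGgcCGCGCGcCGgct
ZNF644: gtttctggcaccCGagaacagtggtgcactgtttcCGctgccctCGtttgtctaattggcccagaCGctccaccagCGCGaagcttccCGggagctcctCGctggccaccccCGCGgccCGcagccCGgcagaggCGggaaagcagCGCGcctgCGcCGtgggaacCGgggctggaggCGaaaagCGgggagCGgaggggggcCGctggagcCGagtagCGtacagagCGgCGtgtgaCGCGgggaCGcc
SETDB2: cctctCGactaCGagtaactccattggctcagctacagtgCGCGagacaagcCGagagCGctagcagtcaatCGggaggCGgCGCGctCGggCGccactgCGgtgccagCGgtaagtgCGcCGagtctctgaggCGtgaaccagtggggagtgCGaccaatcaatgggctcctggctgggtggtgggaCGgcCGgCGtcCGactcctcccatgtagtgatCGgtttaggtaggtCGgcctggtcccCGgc
These stretches hold 16, 29 and 25 CG dinucleotides in that order. All 10 members matched the RefSeq promoter table, with 19 windows of 300 bases (250 before and 50 after a start). The ratio of observed to expected CG was at least 0.6 in 14 of 19 member windows, against 48.9% of the 35116 windows of all genes. Every member had at least 1 such window, against 51.9% of the 27305 genes of that table, which were not limited to genes on the array. The members had more windows per gene (19 for 10 genes, against 35116 for 27305), which makes at least 1 such window likelier. The letters GGGCGG, searched on both strands, were in 12 of 19 member windows (45.0% of all windows), CCAAT in 6 of 19 (34.6%) and TATAAA in 0 of 19 (11.5%). These are descriptions of sequence; the arrays measured RNA only, and nothing was measured at these promoters.

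EHMT1 encodes GLP, the partner that G9a pairs with. It read 377 in the CL1-5 control, 463 after the shRNA, 309 with vector and 231 with HA-G9a. The relative log2 ratios were -0.12 after the shRNA (0.30 as deposited) and -0.34 with HA-G9a, both within 2-fold. The HA-G9a array, where EHMT2 was highest, had the lowest EHMT1 signal. Its 3 probe sets did not share a direction: the relative ratio ran from -0.26 to 0.43 after the shRNA and from -0.55 to 0.25 with HA-G9a.

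ZNF644 encodes a zinc finger protein of the G9a-GLP complex that helps place it on chromatin. Its signals were 601 in the CL1-5 control, 371 under the shRNA, 465 with vector and 552 with HA-G9a. The relative log2 ratio was -1.12 after the shRNA, with 6.74% of genes lower, and 0.33 with HA-G9a. All 3 of its probe sets had relative ratios below 0 after the shRNA, from -1.12 to -0.23, and above 0 with HA-G9a, from 0.33 to 0.59. The second brightest, 1553725_s_at, read 179, 125, 102 and 145 in the order CL1-5 control, shRNA, vector and HA-G9a. ZNF644 was thus on the EHMT2 side in both lines, but its shRNA ratio as deposited was -0.70, short of 2-fold.

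CDYL encodes a chromodomain protein that binds methylated histone H3 and bridges G9a to the repressor REST. It read 677 in the CL1-5 control, 457 after the shRNA, 342 with vector and 331 with HA-G9a. Its other 2 probe sets read 482, 326, 170 and 150.5, and 593, 439, 325 and 304, in the same order. In deposited signal the CL1-5 control was highest on each probe set, and the G9a shRNA array lay between it and the CL1-0 arrays. With each array centred on its own median gene, the brightest probe set had log2 values of 2.69, 1.72, 1.77 and 1.80. For that probe set the shRNA array then lay slightly below both CL1-0 arrays, and the same holds for 203098_at. It stayed above both for 203099_s_at, at 326 against 170 and 150.5 as deposited, so the order differs between probe sets. The 3 relative ratios after the shRNA were -0.99, -0.99 and -0.85, a spread of less than the yardstick, and none reached 2-fold. With HA-G9a they ran from -0.09 to 0.04, close to the median gene, between the arrays where EHMT2 was 2.17-fold higher on the same relative scale.

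WIZ, a zinc finger protein that stabilises the G9a-GLP dimer, read 168 and 217 in CL1-5 (control, shRNA) and 167 and 171 in CL1-0 (vector, HA-G9a). Its relative ratios were -0.05 and 0.12. A second probe set of nearly equal brightness, 52005_at, read 208, 218, 145 and 149. All 4 WIZ probe sets had relative ratios below 0 after the shRNA, down to -0.92 for 221785_at, and none reached 2-fold.

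Of the enzymes of heterochromatin, SUV39H1 was measured by a single probe set and stayed closest to the median gene. It read 183, 253, 164 and 156 in the order CL1-5 control, shRNA, vector and HA-G9a, with relative ratios of 0.04 and 0.01. SUV39H2, its paralog, read 355, 371, 464 and 535, with relative ratios of -0.36 and 0.29. Its dimmer probe set, 219262_at, gave -0.83 and -0.06. Neither paralog reached 2-fold in either line.

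SETDB1, the trimethylating enzyme recruited by TRIM28, read 101, 111, 118 and 102 in the same order. Its relative ratios were -0.29 after the shRNA and -0.13 with HA-G9a, and its second probe set gave 0.04 and -0.05. PRDM2, also called RIZ, carries a PR domain related to the SET domain. It read 208, 247, 225 and 179, with relative ratios of -0.17 and -0.24, while its other 2 measured probe sets ran from -0.03 to 0.19 after the shRNA and from 0.16 to 0.28 with HA-G9a. The last 2 of its 5 probe sets stayed below 12.5.

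SETDB2, a SET domain enzyme related to SETDB1, was the dimmest member and the only member whose brightest probe set stayed below 84.2 on all arrays. That probe set, 235338_s_at, read 52.6 in the CL1-5 control, 27.4 after the shRNA, 28.2 with vector and 52.9 with HA-G9a. Its relative log2 ratios of -1.36 and 0.99 followed EHMT2 in both lines. The other measured probe set, 235339_at, read 29.8, 54.4, 31.6 and 31.7, with relative ratios of 0.45 and 0.09. The pair differed in direction after the shRNA, by more than 3 times the yardstick SD, and the mean of both was -0.46. The remaining 4 SETDB2 probe sets stayed below 12.5 on all arrays, so the shRNA call of SETDB2 rests on a single probe set.

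With HA-G9a, EHMT2 was the only member past 2-fold (1 of 10), where 5.46% of the 12791 measured genes were 2-fold higher, 3.74% lower and 9.21% either. EHMT2 is the gene that was introduced as HA-G9a, so no further member is in this count. Among genes reading at least 84.2 on the brighter array, 2.39% passed. The median member had a relative ratio of 0.08, or 0.04 without EHMT2. SETDB2 lay just short of the threshold at 0.99, and the other 8 members lay between -0.34 and 0.33. EHMT2 itself fell short of 2-fold, at 0.96, when the arrays were scaled to a common median, and at 0.69 when its measured probe sets were averaged.

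Set side by side, 6 of 10 members were lower after the shRNA and higher with HA-G9a relative to the median gene, against 26.3% of the 11883 genes measured in both comparisons. They were EHMT2, WIZ, ZNF644, CDYL, SUV39H2 and SETDB2. This includes the targeted gene. For WIZ, ZNF644, CDYL and SUV39H2 at least 1 of both ratios was smaller than the yardstick SDs of 0.54 and 0.51. Against the SDs of 0.30 and 0.25 for bright probe sets this held for WIZ and CDYL only. The dimmer SUV39H2 probe set gave -0.06 with HA-G9a. As deposited, 3 of 10 members kept the pattern, against 9.34% of genes: EHMT2, ZNF644 and SETDB2. WIZ and SUV39H2 were then above 0 after the shRNA, at 0.37 and 0.06, and CDYL was below 0 with HA-G9a, at -0.05. Of the 3 that kept it, SETDB2 and ZNF644 each had another measured probe set above 0 after the shRNA. As deposited these were at 0.87 (235339_at) and 0.19 (229684_s_at).

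**Figure D3:**
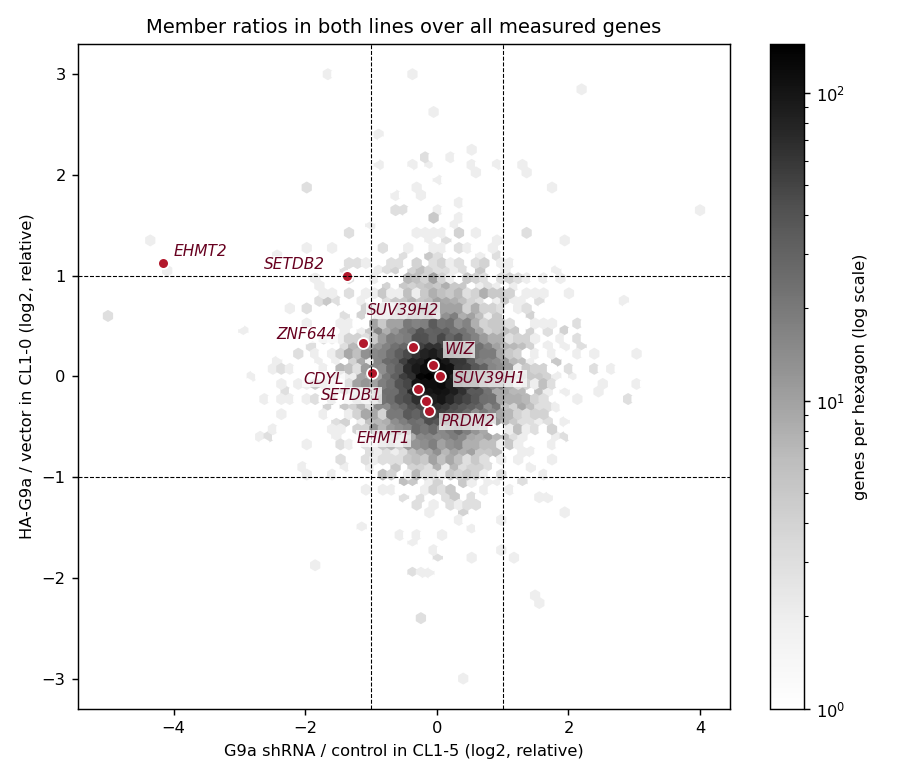
Relative log2 ratio after the G9a shRNA in CL1-5 (x axis) against that with HA-G9a in CL1-0 (y axis); red points are the 10 members and grey hexagons count all genes measured in both comparisons, with values past the axis ends drawn at the edge. EHMT2 sits at -4.16 and 1.12 and SETDB2 at -1.36 and 0.99, while most members lie in the dense centre.

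Between the control populations of the lines, 0 of 10 members passed 2-fold, where 25.8% of 12925 measured genes did, 12.6% higher in CL1-5 and 13.2% lower. CDYL came closest, with a relative log2 ratio of 0.9998 (CL1-5 over CL1-0), just under the threshold; its other probe sets gave 1.52 and 0.88. SETDB2 was next at 0.91, but its second probe set gave -0.07. The other 8 members lay between -0.37 for SUV39H2 and 0.38 for ZNF644. WIZ was 0.03 by its brightest probe set, although all 4 of its probe sets were above 0 and the dimmest, at 13.1 against 2.24, gave 1.98, a value set by the floor of 3.35 to which lower signals were raised. By the brightest probe sets, each array centred on its median gene, both CL1-5 arrays read above both CL1-0 arrays for EHMT1 and SUV39H1. They read below them for EHMT2, WIZ, SUV39H2 and SETDB1. For WIZ, 52005_at, of nearly equal brightness, went the other way in deposited signal, at 208 and 218 in CL1-5 and 145 and 149 in CL1-0. In deposited signal of the brightest probe sets WIZ and SETDB1 overlapped between the lines, and CDYL was higher in both CL1-5 arrays. Centred, 6 of 10 members did not overlap between the lines by the brightest probe set, against 58.5% of 13953 genes (25.4% above and 33.1% below). Each line here pools a control with a perturbed population. For EHMT2 the CL1-5 control also read below the CL1-0 vector.

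Other genes of the H3K9 pathway ran from -3.31 to 1.54 after the shRNA on the relative log2 scale. Of 30 genes for readers, cofactors, demethylases and linked DNA methyltransferases, all measured after the shRNA, 1 was 2-fold higher and 1 lower, where 15.9% of all genes passed, and the median was -0.0039 against 0.00 for all genes. PRDM1, which encodes the repressor BLIMP1, read 7.25 against 53.7 in the control, a relative ratio of -3.31 shared in sign by all 3 of its measured probe sets. GFI1, a zinc finger repressor, read 13.1 against 0.23, below that floor, so its ratio of 1.54 depends on the floor. With HA-G9a, 0 of 28 passed 2-fold, against 9.21% of all genes (median -0.08). Between the controls 1 of 29 was higher in CL1-5 and 2 lower, against 25.8% of all genes past 2-fold (median -0.12): PRDM1 read 53.7 against 4.70 in CL1-0, DNMT3B, a de novo DNA methyltransferase, 132 against 377, and PPHLN1, a HUSH complex subunit, 548 against 1137. For PPHLN1, 1 of 4 measured probe sets pointed the other way.

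Of 19 methyltransferase genes for other histone H3 and H4 lysines 18 were on the array. After the shRNA 1 of 18 was 2-fold higher and 0 lower, against 15.9% of all genes, with a median of 0.35, beside -0.32 for the members. The higher gene was EZH1, an H3 lysine 27 methyltransferase, which read 223 against 82.7; 1 of 4 probe sets measured for it pointed the other way. With HA-G9a 0 of 18 passed, against 9.21% (median 0.10). Between the controls 3 of 18 passed, against 25.8%: SETD7 was higher in CL1-5 (359 against 137), and KMT5C (16.3 against 42.6) and KMT2D (166 against 341) were lower, with a median of -0.04. For KMT2D, 1 of 4 measured probe sets pointed the other way.

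The genes whose profile over the 4 arrays was most like EHMT2 were not members. Likeness was the Euclidean distance between array-centred log2 signals, each gene set to its own mean, over 8883 genes reading at least 84.2 on some array. LGALS3BP, a secreted galectin-binding glycoprotein, was nearest (distance 0.75) and read 121, 5.55, 73.1 and 254 in the order CL1-5 control, shRNA, vector and HA-G9a. TNS3, which encodes the focal adhesion protein tensin 3, followed at 0.76 with 66.3, 1.16, 92.9 and 201, its shRNA signal lying under the floor. LAMB1, a laminin chain, came next at 0.95 with 448, 56.5, 365 and 805. Of the 8 other members bright enough to be ranked, ZNF644 was nearest to EHMT2, at a distance of 3.31 and place 448. EHMT1 was the farthest of them, at 4.41 and place 5922. SETDB2 was too dim to be ranked, so its likeness to EHMT2 is not covered by this order.

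**Figure D4:**
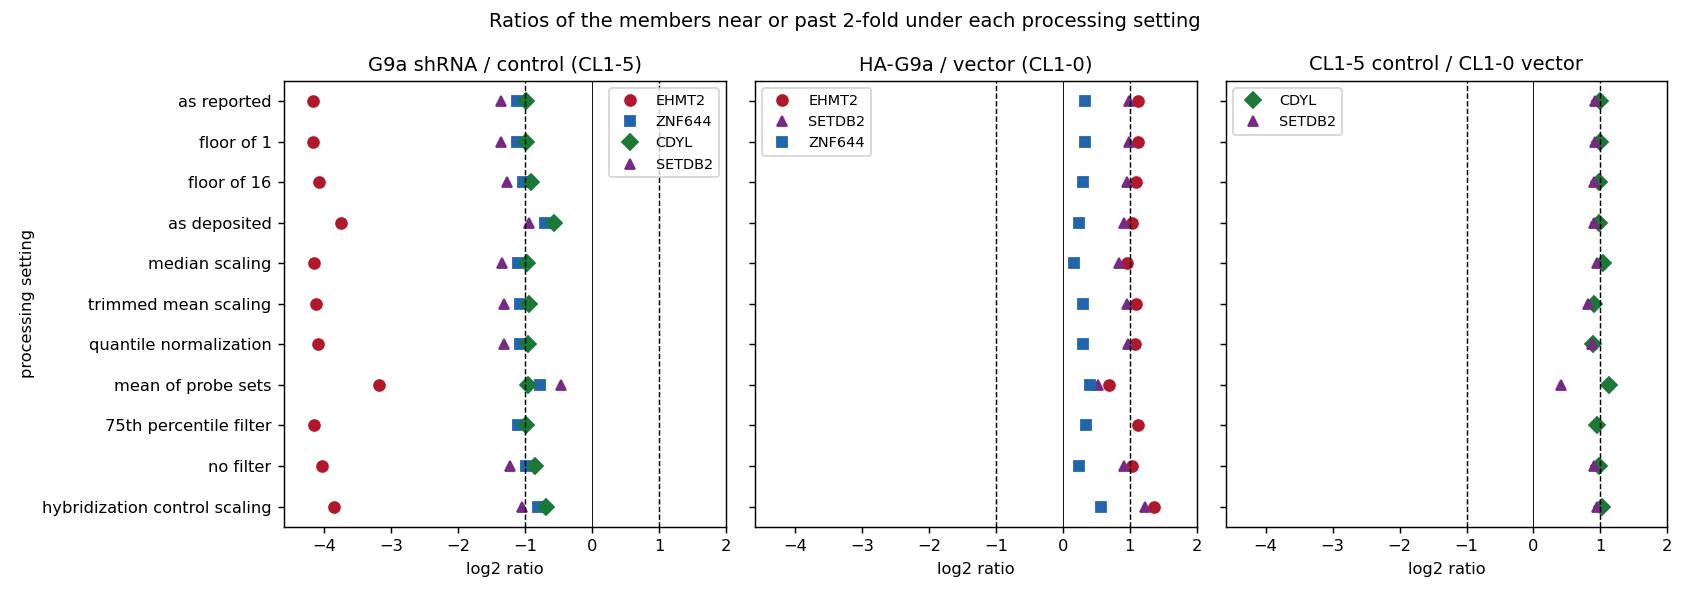
Log2 ratio (x axis) of the members near or past 2-fold under each processing setting (y axis), 1 panel per comparison, with 2-fold as dashed lines; SETDB2 has no point where it fails the filter at the 75th percentile. After the shRNA EHMT2 stays between -4.16 and -3.19, ZNF644 passes 2-fold in 6 of 10 settings beside the reported one and SETDB2 in 7 of 9, and CDYL in 0 of 10.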

How the data were processed

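RNA of 4 stably transduced lung adenocarcinoma populations was measured on 1 array each. The deposited values are 1 linear intensity per probe set and array (54675 probe sets, all above 0). MAS5 is the only tool named in the submitters' processing notes; its settings and scaling target are not given here, nor are presence calls. Median intensities ran from 11.3 to 14.9, and the number of arrays limits the precision.

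Probe sets with 1 gene symbol (41097; 1801 had several and 11777 none) were named through the platform annotation, with symbols updated by Entrez identifier (41043 matched). Sex chromosome transcripts that report sex were dropped. Signals were floored at 3.35, the 25th percentile, and log2-transformed. Each gene took its probe set of highest mean signal. The brighter array had to reach 12.5, the median of all values. No test was made, because no group has a replicate; a fold threshold of 2 was used. All members and their probe sets are named. From the 2 further lists at most 4 genes past 2-fold per comparison are named, and the 3 genes nearest EHMT2. Members and lists were chosen with earlier results of these data known. The ratio step was tested on simulated data. Python 3.11.15, pandas 2.3.3, NumPy 2.4.6 and matplotlib 3.10.9 were used. Alternatives covered the floor, scaling, probe set choice and filter.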

Additional observations from a re-analysis of the deposited data

Results flagged for a closer look

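The contrast of more against less G9a (control over shRNA in CL1-5, HA-G9a over vector in CL1-0) had opposite signs in the lines for 4 members. EHMT1 had relative log2 ratios of 0.12 in CL1-5 and -0.34 in CL1-0, a difference of 0.46. SETDB1 had 0.29 and -0.13 (difference 0.42) and PRDM2 0.17 and -0.24 (difference 0.41). For SUV39H1 the values were -0.04 and 0.01, a difference of -0.050. These signs depend on setting ratios against the median gene. As deposited, all 4 were higher after the shRNA (0.30, 0.13, 0.25 and 0.46 for EHMT1, SETDB1, PRDM2 and SUV39H1) and lower with HA-G9a (-0.42, -0.21, -0.33 and -0.07), the same direction in both lines. With 1 array per group none of these differences was tested, and each relative ratio was smaller than the pooled SD between probe sets of the same gene, 0.54 and 0.51. Against the SDs of 0.30 and 0.25 for probe sets reading at least 84.2, only EHMT1 with HA-G9a, at -0.34, was larger.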

How the results depend on the processing

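Each member ratio was recomputed under 10 other settings, of which scaling to the hybridization controls was chosen after seeing the data. Of 297 recomputed ratios, 294 moved by less than the SD between probe sets of a gene, 3 moved by more and 29 took the other sign. Several settings could not move a ratio that far. As deposited, all ratios after the shRNA moved by 0.42, under the SD of 0.54, and a floor of 1 moved no member ratio. The 294 is therefore no measure of stability. All 3 larger moves came with probe sets averaged. Ratios that took the other sign were reported at no more than 0.36 in size, for 5 members after the shRNA, 5 with HA-G9a and 1 (WIZ) between the controls. EHMT1 and WIZ after the shRNA did so in 4 of 10 settings each, CDYL with HA-G9a in 4 and SUV39H1 with HA-G9a in 6, so the counts of members above or below 0 depend on the scaling. The count of members past 2-fold after the shRNA, 3 as reported, was 1 as deposited and 1 with probe sets averaged, EHMT2 in both cases. It was 2 with the 75th percentile filter, which SETDB2 does not pass, 2 without a filter and 2 with hybridization control scaling. The share of all genes past 2-fold was 15.9% as reported and 21.6% as deposited. With HA-G9a the count of 1 became 0 under median scaling (EHMT2 at 0.96) and 0 with probe sets averaged (0.69), and 2 under hybridization control scaling, where SETDB2 reached 1.23. Between the controls the count of 0 became 1, CDYL, under median scaling (1.04), 1 with probe sets averaged (1.12) and 1 under hybridization control scaling (1.03). For 18 hybridization control probe sets the median was 0.11 (SD 0.11) in the shRNA comparison and -0.32 (SD 0.13) with HA-G9a, on the deposited log2 scale. ZNF644 passed 2-fold after the shRNA in 6 of 10 settings and SETDB2 in 7 of 9, whereas CDYL passed in 0 of 10 and EHMT2 in 10 of 10. The settings overlap, so these tallies do not count independent checks. ZNF644 stayed at -1.12 with a floor of 1 and was at -1.10, -1.07 and -1.08 under median, trimmed mean and quantile scaling. No paired analysis was possible because each group holds 1 array. Leaving out replicates could not be done for the same reason. Signals near 12.5 limit the dim probe sets of SETDB2, WIZ and EHMT2.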
